A study of Mus musculus with 3 samples.

Results

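Transcript levels of 10 transcription factor genes of mesoderm and mesenchyme (Twist1, Twist2, Prrx1, Prrx2, Meox1, Foxc1, Foxc2, Osr1, Wt1 and Tbx2) were compared between wild type and Dido3deltaCT mutant mouse embryoid bodies. The genes were found by the gene name printed in the scanner files, on spots that are not controls, and this gave 11 probes of the array's 39429, with 2 for Prrx1 and 1 for each of the others. Of the 10 genes, 8 passed a filter on dim signals, among 15427 genes that passed it in all. The filter kept a probe when the samples of either genotype were above background, by the scanner's well-above-background flag, on each of the 3 arrays. Prrx1 and Osr1 did not pass and are described without a call.

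Embryoid bodies are balls of embryonic stem cells that differentiate when they are kept in suspension. All samples, mutant and wild type alike, were cultured as such aggregates to day 10 with no LIF, the cytokine that holds stem cells in self-renewal. The mutant makes a Dido3 protein that lacks its C terminus, and the wild type is the labelled control. Each of 3 two-colour arrays held 1 mutant and 1 wild type sample, labelled as biological replicates. The mutant sample was labelled with Cy3 on 2 arrays, replicates 1 and 3, and with Cy5 on replicate 2. Whether the replicates are separate cell lines or repeat cultures of 1 line per genotype is not given in the sources used here, so p-values measure the spread between these samples, and a difference of genotype may be a difference of line.

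In the embryo, mesoderm leaves the primitive streak and is divided into axial, paraxial, intermediate and lateral plate parts, and much of it becomes mesenchyme, the loose migratory tissue of limb, skull, heart and gut wall. The genes studied here encode DNA-binding proteins that mark or direct these steps. Twist1 and Twist2 are basic helix-loop-helix factors, Prrx1, Prrx2 and Meox1 are homeobox factors, Foxc1 and Foxc2 are forkhead factors, Osr1 and Wt1 are zinc finger factors of intermediate mesoderm, and Tbx2 is a T-box repressor. Several pairs are close relatives with overlapping roles, so each pair is described together.

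The measurements are hybridisation to single probes of 60 bases, and a stretch of 30 bases of 6 of the 11 is shown because the results turn on them. Letters run 5′ to 3′, and capitals mark AATAAA or ATTAAA, the hexamers that precede the end of many mRNAs.
Foxc1, bases 1 to 30: cttaagcagtaattgctgttgcttgttgtc
Meox1, bases 1 to 30: ctaagattacatcaagctaattgtgcaagg
Wt1, bases 1 to 30: ggtattagctgcatcactgtgtggatgtca
Twist1, bases 24 to 53: aacacctttagaAATAAAaacgctgggatc
Prrx1 variant 2, bases 4 to 33: gtgggaggttaaATTAAAccagaagtaatg
Prrx1 variant 3, bases 17 to 46: catgagatattcATTAAAagatctttctct
The Foxc1, Meox1 and Wt1 probes hold neither hexamer and are those of the 3 members with the smallest p-values below. Twist1 is shown because its ratio turned on replicate 2, the only array with the mutant in Cy5. The Prrx1 pair is shown because its 2 probes are annotated to different transcript variants. Searched on the printed strand alone, 6 of the 11 probes held a hexamer, against 16.7% of all 39429 probes. The Foxc1, Meox1 and Wt1 probes each have 35% G or C, as do those of Twist1, Foxc2 and Prrx1 variant 3. The median over all probes was 41.7%. By the mm9 positions in the scanner files, the Foxc1 probe lies at chr13:31902423-31902482 on the plus strand, the Wt1 probe at chr2:105013656-105013715 on the plus strand and the Meox1 probe at chr11:101738847-101738906 on the minus strand. The Twist1 probe lies at chr12:34644411-34644470 on the plus strand. The Prrx1 probes lie at chr1:165175375-165175434 for variant 2 and chr1:165185408-165185467 for variant 3, both on the minus strand. The files annotate each to an mRNA of its gene, and exon or UTR was not assigned here.

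No member passed the test over all genes. Foxc1 was the most shifted towards the wild type, with a mean log2 ratio of mutant over wild type of −1.65 ± 0.35 (SE of the limma fit, 3 arrays; adjusted p = 0.0829), below 0 on each array. Its relative Foxc2 had −0.83 ± 0.35. Meox1 had 0.78 ± 0.24 and was above 0 on each array with the least spread of the 8. Wt1 had 1.63 ± 0.60, carried by replicates 1 and 3. Twist1, Prrx2 and Tbx2 showed no common direction over the arrays. RNA came from whole embryoid bodies, so fewer cells of a type and less RNA per cell cannot be told apart.

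Most of the probes read close to background. Intensities below are normalized array units after background correction, and an offset of 50 units was added to every signal, which pulls the ratios of dim probes towards 0. Probes that were not well above background in any of the 6 samples had a median of 72.2 units, with the 5th and 95th percentiles at 60.2 and 96.8. Over tested genes the median was 992 units. Levels of different probes are not compared with each other.

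**Figure D1:**
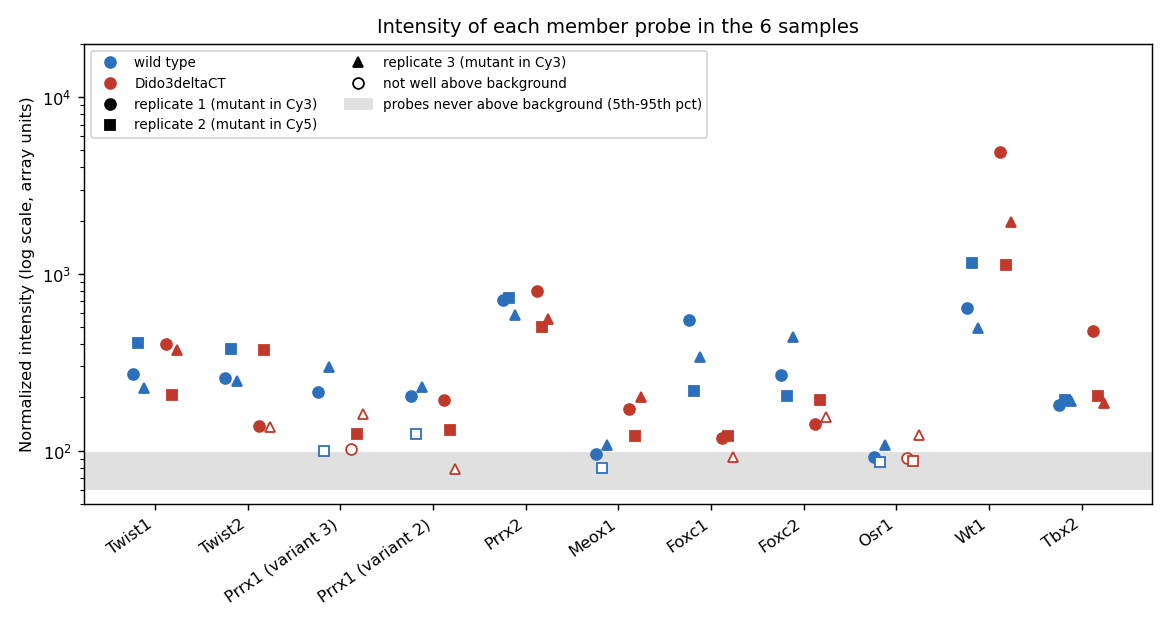
Normalized intensity (log axis, array units) of the 11 member probes in 3 wild type (blue) and 3 mutant (red) samples; marker shape gives the replicate and open markers were not well above background. The grey band spans 60.2 to 96.8 units, the 5th to 95th percentile of probes never above background; Foxc1, Foxc2 and Meox1 are the tested members whose genotypes do not overlap.

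Foxc1 and Foxc2 are forkhead factors of paraxial and cardiovascular mesoderm, and both had the higher signal in the wild type. Foxc1 intensity was 551, 217 and 339 units in wild type replicates 1, 2 and 3, against 118, 120 and 92.3 in the mutant. Every mutant sample was below every wild type sample, and the mutant of replicate 3 was not well above background. Wild type over mutant was 4.68-fold, 1.80-fold and 3.67-fold on the 3 arrays. The limma fit gave −1.65 ± 0.35 with an adjusted p of 0.0829, which ranks Foxc1 932nd by p among all genes tested. On Agilent's own processed signals, which carry no such offset, the ratio was −3.20. There Foxc1 was at least 2-fold lower on every array, as were 3.58% of all genes. Its mutant processed signals were only 25.9, 33.4 and 13.6 units, so this ratio rests on small values. The authors' deposited values gave a ratio of −0.91. With the 7 spots of extreme local background kept in the background model it was −1.05, and with replicate 2 left out −2.05.

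Foxc2 read 267, 203 and 439 units in the wild type and 141, 194 and 154 in the mutant. The genotypes did not overlap, but on replicate 2 they differed by only 1.04-fold, and the mutant of replicate 3 was not well above background. Ratios were −0.92, −0.063 and −1.51 (adjusted p = 0.245, limma). Foxc1 and Foxc2 were thus both below 0 on all 3 arrays, with replicate 2 the weakest for each. Without replicate 3 the Foxc2 ratio was −0.49, and without replicate 2 it was −1.21.

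Meox1, a homeobox gene of somites, was close to background in the wild type. Its wild type intensities were 95.3, 79.8 and 108 units, of which that of replicate 2 was not well above background. In the mutant they were 171, 120 and 200 units, all well above it. No mutant sample overlapped with the wild type, and the log2 ratios of 0.85, 0.59 and 0.89 kept within 0.30 of each other. The mean was 0.78 ± 0.24, or 1.71-fold (adjusted p = 0.151, limma). As the wild type lies near the offset, the ratio depends on it: 1.07 with an offset of 16 and 1.92 on the processed signals. On the latter Meox1 was at least 2-fold higher on every array, as were 4.9% of all genes tested. Its wild type processed signals were only 37.8, 8.74 and 30.5 units, so the 1.92 rests on small values.

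Wt1, the Wilms tumour gene, is a marker of mesothelium and intermediate mesoderm. The mutant read 4912, 1120 and 1963 units on replicates 1, 2 and 3, and the wild type 639, 1157 and 497. The mutant was 7.69-fold and 3.95-fold brighter on replicates 1 and 3, where it carried Cy3, and 0.968 times the wild type on replicate 2, where it carried Cy5. The genotypes overlapped, as the wild type of replicate 2 was above the mutant of that array. Limma gave 1.63 ± 0.60 (adjusted p = 0.203), and the ratio was 0.97 without replicate 1 and 2.46 without replicate 2. With a dye term, which weighs both orientations equally, it was 1.21.

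Osr1, a zinc finger factor of intermediate and lateral plate mesoderm, could not be measured at a level that allows a comparison. Its 3 mutant samples were not well above background, and 2 of the 3 wild type samples were. Both of these, on replicates 1 and 3, carried Cy5, and no Cy3 sample was well above background. The wild type read 92.1, 86.4 and 108 units and the mutant 91.1, 86.9 and 123. These values lie within or just above the range of probes that were never detected, so no fold is given.

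Tbx2, a T-box repressor of heart, limb and eye development, differed on replicate 1 alone. The mutant read 473 units there against 180 in the wild type, 2.63-fold brighter. On replicate 2 the values were 203 and 192 units, and on replicate 3 they were 185 and 192. The genotypes overlapped and the mean ratio was 0.47 ± 0.37 (adjusted p = 0.497, limma). Without replicate 1 it was 0.016.

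Twist1 and Twist2 are basic helix-loop-helix factors of mesenchyme that bind DNA as dimers with E proteins. Twist1 read 400, 205 and 373 units in the mutant and 269, 405 and 227 in the wild type. On each array the sample labelled with Cy3 was the brighter one: the log2 ratio was 0.57 and 0.72 where the mutant carried Cy3 and −0.98 where it carried Cy5. The mean of 0.10 ± 0.41 (95% interval −0.96 to 1.16; adjusted p = 0.905, limma) had no stable sign and was −0.17 with a dye term. Over all genes tested, replicate 2 was opposite in sign to both other arrays for 39.9%.

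Twist2 read 257, 374 and 246 units in the wild type and 138, 372 and 136 in the mutant. The genotypes were 1.86-fold and 1.81-fold apart on replicates 1 and 3, with the wild type brighter, and equal within 1.00-fold on replicate 2. The overlap comes from replicate 2, whose mutant sample exceeded the wild type of the other arrays. Limma gave −0.59 ± 0.29 (adjusted p = 0.311). In the mutant of replicate 3 the probe was not well above background. On the processed signals the ratio was −1.21.

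Prrx1 and Prrx2 are paired-type homeobox factors of limb and craniofacial mesenchyme. Prrx2 read 712, 731 and 582 units in the wild type and 800, 500 and 555 in the mutant. The genotypes overlapped, with a ratio of −0.15 ± 0.27 (95% interval −0.83 to 0.53; adjusted p = 0.769, limma). Leaving out replicate 2 turned the sign, to 0.050.

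The variant 3 probe of Prrx1 was well above background in the Cy5 sample of all 3 arrays and in no Cy3 sample, a pattern that 2.56% of all probes had and that only 0.0203% had with the dyes exchanged. It read 215, 99.3 and 297 units in the wild type and 102, 124 and 160 in the mutant, so the sign followed the dye on all 3 arrays. Its mean log2 ratio was −0.55 ± 0.76 (SD, n = 3). The variant 2 probe read 202, 123 and 230 units in the wild type and 193, 130 and 78.8 in the mutant, and differed between genotypes on replicate 3 alone. It gave −0.51 ± 0.90 (SD, n = 3). The 2 probes disagreed on replicate 1, at −1.07 for variant 3 and −0.072 for variant 2.

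**Figure D2:**
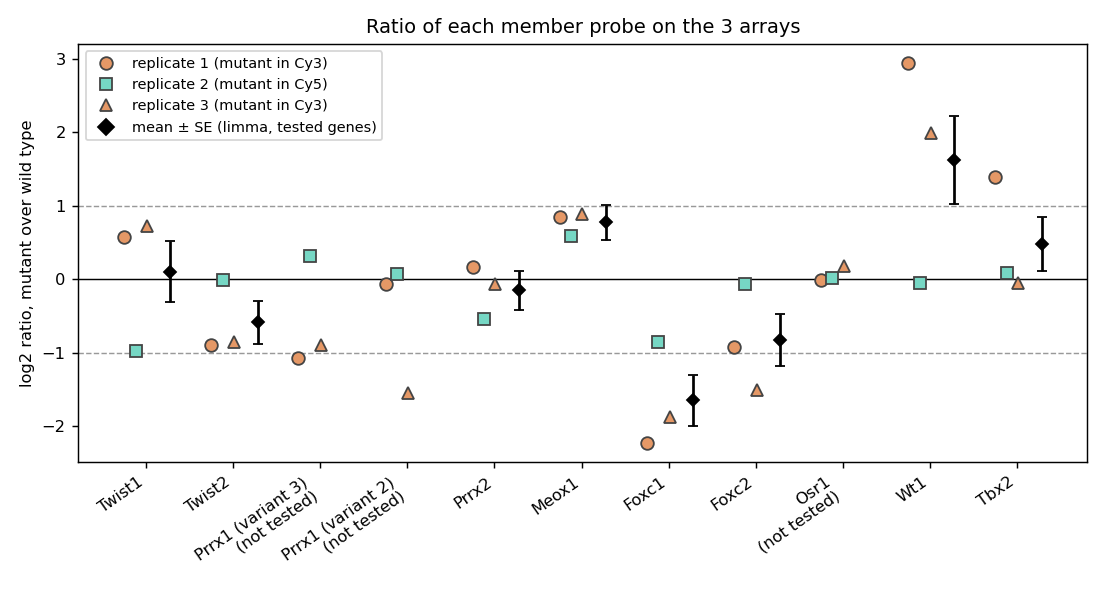
Log2 ratio of mutant over wild type for each member probe on replicates 1 (circles), 2 (squares) and 3 (triangles), coloured by the dye of the mutant, with dashed lines at 2-fold and the limma mean ± SE for tested genes. Foxc1 is below 0 and Meox1 above 0 on every array, while the replicate 2 value of Wt1 lies at −0.047 and that of Twist1 at −0.98, opposite to its other arrays.

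Counted together, 0 of the 8 tested members passed limma at an adjusted p under 0.05, against 0.298% of all genes tested (0.207% higher and 0.0907% lower), and 1, Foxc1, had an adjusted p under 0.1, against 8.02%. At an unadjusted p under 0.05 there were 3 (Foxc1, Meox1 and Wt1), against 22.7% of all genes. By the mean ratio Wt1 was at least 2-fold higher and Foxc1 at least 2-fold lower, where the shares of all genes were 9.55% and 7.12%. None was 2-fold higher on every array (2.9% of all genes) and none 2-fold lower (2.61%); with an offset of 16 these were 0 (3.59%) and 1, Foxc1 (3.2%), and without replicate 2 they were 1, Wt1 (12.7%), and 1, Foxc1 (8.46%). On replicate 1 Wt1 and Tbx2 were at least 2-fold higher and Foxc1 lower, against 17.9% and 12.7% of all genes. No member was 2-fold different on replicate 2, where 9.97% of all genes were higher and 12.2% lower. On replicate 3 Wt1 was 2-fold higher and Foxc1 and Foxc2 lower, against 16.1% and 11.3%. The 4 genes with 1 sign on the 3 arrays, Foxc1, Foxc2, Twist2 and Meox1, compare with 44.3% of all genes (21.7% above 0 and 22.7% below). The 6 intensities of the 2 genotypes did not overlap for Foxc1, Foxc2 and Meox1, against 19.3% of all genes (10.3% with the mutant higher and 9.02% lower). The median ratio was −0.024 over the 8 and 0.035 over all genes. Foxc1, Foxc2 and Twist2 entered the test through the wild type alone and Meox1 through the mutant alone, so these counts cannot be read as a property of the 10 genes.

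The calls depended on replicate 2. With it left out limma called Wt1, Meox1 and Twist1 higher and Foxc1, Foxc2 and Twist2 lower, but it then also called 25.7% of all genes higher and 21.7% lower, 47.4% in all. With a dye term Foxc1 (adjusted p = 0.00577), Wt1 (adjusted p = 0.0192) and Meox1 (adjusted p = 0.0227) passed, at 30.8% of all genes (15.9% higher and 14.9% lower). In either fit only replicates 1 and 3, labelled the same way, are left to estimate the error. Leaving out replicate 2 also leaves the mutant with Cy3 throughout, so that dye and genotype cannot be told apart. Over genes the ratios correlated at 0.879 between replicates 1 and 3 but at 0.151 and 0.180 between replicate 2 and either of them, a description over genes that are not independent. On every array the Cy5 channel had more spots well above background than the Cy3 channel, 62.5% to 74.4% against 46.5% to 62.3%. Only replicate 2 had the mutant in Cy5, so dye cannot be told apart from that array or its samples, with or without a dye term. The part of the dyes in the members' ratios was not tested.

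**Figure D3:**
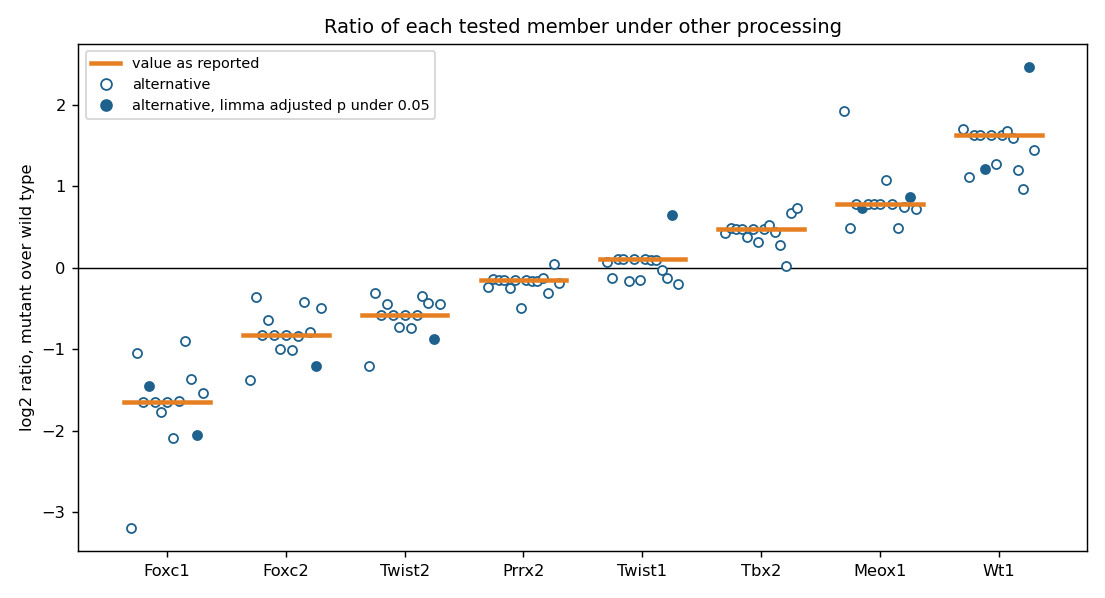
Log2 ratio of each tested member as reported (orange bars) and under each alternative of background correction, normalization, filter, pairing or replicates (circles, filled where the limma adjusted p was under 0.05). Foxc1, Foxc2 and Twist2 stay below 0 and Meox1, Wt1 and Tbx2 above 0 throughout, while Twist1 and Prrx2 lie on both sides.

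For each tested member the gene with the closest ratios over the 3 arrays was looked up, by Euclidean distance. The nearest to Foxc1 was Pxdn, the gene of peroxidasin, an enzyme that crosslinks basement membrane collagen, at a distance of 0.13 log2 units. Its ratios were −2.17, −0.80 and −1.98. Wt1 had the least common profile, with Gca, a calcium-binding protein gene, at 0.22 and 1 gene within 0.25. Meox1 was nearest to Crlf3 at 0.044, Foxc2 to Ephb1 at 0.072, Twist2 to Parp8 at 0.029, Twist1 to Fbxo42 at 0.088 and Prrx2 to Zfp959 at 0.068. The nearest to Tbx2, at 0.10, has no gene symbol. The number of genes within 0.25 ranged widely, from 149 for Twist2, 141 for Prrx2, 78 for Meox1 and 67 for Twist1 to 24 for Foxc2, 19 for Tbx2 and 8 for Foxc1.

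The partners and relatives of these factors, a list of 33 genes, lay lower than the members. It holds the E proteins that pair with Twist, the Id proteins that sequester E proteins, the Snail and Zeb repressors of epithelial genes, and forkhead, T-box and homeobox relatives. Of the 20 tested, 0 rose, 0 fell and 20 did not pass, with a median of −1.08 against 0.035 over all genes. At an unadjusted p under 0.05, 11 were lower and 1 higher, where 11.3% and 11.4% of all genes were. The smallest p-values were those of Id2, with −1.72, −1.62 and −1.92 on replicates 1, 2 and 3 (adjusted p = 0.0543, limma), Snai1, with −3.06, −1.84 and −2.09 (adjusted p = 0.0559), and Snai2, with −1.46, −1.92 and −1.62 (adjusted p = 0.0563). All 3 were thus below 0 on every array and at least 2-fold lower on each, as were 6 of the 20, against 2.61% of all genes. The higher one was Tcf15, a somite factor also called paraxis, with 2.17, 1.26 and 1.79 (adjusted p = 0.0607). Of the Twist partners, Tcf12 had −1.23 ± 0.24, Tcf4 −0.31 ± 0.32 and Tcf3 −0.28 ± 0.30. Tcf15 and the E proteins were singled out after their values were seen. Of the 20, 5 passed the filter through the wild type alone and 0 through the mutant alone, and without a filter on dim probes the median was −0.38.

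Mesenchyme markers, 27 genes of matrix, receptors and contractile fibres, had a median of −0.95 over 23 tested, with array medians of −1.42, −0.33 and −1.51. None rose, none fell and 23 did not pass. At an unadjusted p under 0.05, 10 were lower and 1 was higher, where 11.3% and 11.4% of all genes were. Pdgfra, the receptor of early mesenchyme and of extraembryonic endoderm, gave −3.67, −2.32 and −2.63 on replicates 1, 2 and 3 (adjusted p = 0.0526, limma). Postn, the gene of the matrix protein periostin, had −1.88, −2.60 and −1.82 (adjusted p = 0.0543). Mdk, the growth factor midkine, had −1.70, −1.50 and −2.12 (adjusted p = 0.0559). The higher one was the surface antigen gene Thy1, with 1.80, 1.55 and 2.64 (adjusted p = 0.0580), named after its value was seen. Fn1, the gene of fibronectin, had 0.12 ± 0.23. Vim, S100a4, Tnc and Twsg1, also of this list, were not tested. This list was not uniform: of the 23 tested genes, 11 were below 0 on every array, 2 above and 10 mixed. Over all genes 22.7% were below 0 on every array and 21.7% above.

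Genes of paraxial and intermediate mesoderm stood on both sides of 0, with a median of 0.035 over 12 tested of 22. None passed the test over all genes. At an unadjusted p under 0.05, 3 were higher, Pax8 and Sall1 among them, and 3 were lower, Pax3, Dll1 and Pax9. Of all genes, 11.4% were higher and 11.3% lower. Pax3, Dll1 and Pax9 passed the filter through the wild type alone and Pax8 through the mutant alone, so their directions are not independent of it. Of the 12, 25% passed through each genotype alone, against 9.15% (wild type) and 5.7% (mutant) of all genes. Pax3, of dorsal neural tube and somite, had −2.03 ± 0.38 (adjusted p = 0.0719, limma) and Dll1, a Notch ligand of presomitic mesoderm, −1.55 ± 0.32 (adjusted p = 0.0806). Pax9, of the sclerotome, was not well above background in any mutant sample. Its ratios were −0.46, −1.39 and −0.84 on replicates 1, 2 and 3 (adjusted p = 0.162, limma). Set against the dimmest detected probes, the wild type was at least 1.65-fold brighter by the mean over arrays. This is no bound for a single array. Pax8 and Sall1, both of the forming kidney, had 0.94 ± 0.30 and 0.90 ± 0.35. Tbx6, which specifies presomitic mesoderm, had −0.032 ± 0.26. Mesp1, Mesp2 and Msgn1, early mesoderm factors, did not pass the filter.

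Of 12 genes of mesothelium and epicardium, where Wt1 is known, 5 were tested, 0 rose, 0 fell, and 0 had an unadjusted p under 0.05. Of all genes, 22.7% did. The median of the 5 was −0.0015. Podxl, a sialomucin gene, had −0.83 ± 0.34 (adjusted p = 0.238, limma), Muc16, a mucin gene, 0.45 ± 0.25, and Krt19, a simple keratin gene, −0.82 ± 0.53. The mesothelial markers Msln, Upk3b and Upk1b did not pass the filter. Summed over the 5 genes, intensity ran from 2945 to 8097 units in the mutant and from 4213 to 8380 in the wild type, so the sums overlapped. Lrrn4, a mesothelial surface protein gene named after its values were seen, had ratios of 1.55, −0.83 and 2.02 on replicates 1, 2 and 3. Its mean was 0.91 ± 0.60 (adjusted p = 0.425, limma). Krt19 (−2.23, 0.34 and −0.55) and Aldh1a2, also of this list (−0.50, 0.86 and −0.36), had the opposite sign on each array. Podxl was below 0 and Muc16 above 0 on every array. Over all genes tested, replicate 2 was opposite in sign to both other arrays for 39.9%.

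**Figure D4:**
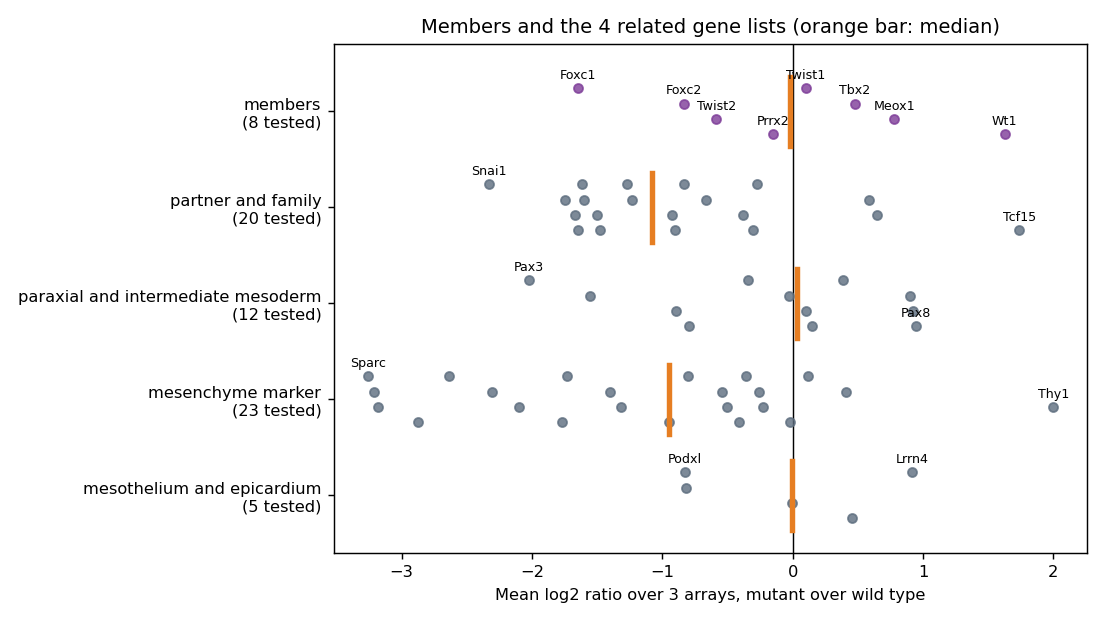
Mean log2 ratio over 3 arrays of the 8 tested members and of the tested genes in 4 related lists, with medians as orange bars. The partner and family list (median −1.08) and the mesenchyme markers (median −0.95) lie mostly below 0, while the members (median −0.024) and the other lists straddle it.

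Markers of other cell types were looked at beside the members, and their part in the members' values was not tested. At an adjusted p under 0.05 (limma), 2 of 6 pluripotency markers were higher and 1 each of the visceral endoderm, cardiac and blood markers was lower, with 0 called among the parietal endoderm, endothelial and neural markers. At an unadjusted p under 0.05, 6 parietal endoderm, 5 visceral endoderm, 3 blood, 3 neural, 2 cardiac and 2 endothelial markers were lower. Among these, the endothelial Cdh5 and Tek, neural Zic1 and Fabp7, blood Hba-x and parietal endoderm Thbd passed the filter through the wild type alone. Their direction is thus not independent of the filter. At that threshold 4 pluripotency markers, 1 cardiac and 1 blood marker were higher. Of all genes, 11.3% were lower and 11.4% higher. All 6 parietal endoderm markers were tested and below 0 on every array, with a median of −3.23. Their summed intensity was 12008 to 114495 units in the mutant and 169164 to 535329 in the wild type, and Sparc is on this list and on that of mesenchyme. The 6 visceral endoderm markers had a median of −1.87, the 6 pluripotency markers 1.62, and the 5 tested blood and 5 tested neural markers of 6 each −2.74 and −3.83. Summed intensities overlapped for visceral endoderm, at 9372 to 76001 units in the mutant and 40063 to 334745 in the wild type. Neural sums overlapped too, at 1712 to 3126 and 2768 to 48077. Those of the pluripotency, blood and cardiac markers did not overlap. Of single genes tested, 19.3% did not overlap, and no such share was worked out for sums. A sum mostly follows its brightest probes: of the 5 cardiac genes tested, 3 were below 0 on every array and 1 was above. Of 6 endothelial markers, a tissue in which Foxc1 and Foxc2 also act, 4 were tested with a median of −0.65, and their sum was 808 to 937 units in the mutant and 1325 to 1669 in the wild type. Cardiac markers had −0.44 over 5 tested. Single markers departed from these medians: Nanog had 0.078, Gata1 0.72, Klf1 0.095 and Myh6 1.81. So did the cardiac Tnnt2 with 0.19, the endothelial Pecam1 with 0.19, and the neural Tubb3 and Nes with 0.092 and −0.90. Dido1, the targeted gene, read 1.74 ± 0.27 (adjusted p = 0.0580, limma) at its brightest probe, which does not check the genotype labels because the limits of the deletion are not known here.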

How the data were processed

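Per the file headers, scanner output came from Feature Extraction 10.7.3.1 with mm9 annotation and gives mean and local background intensity per spot for both dyes, processed intensity values, and other columns of flags. The authors' deposited table holds 1 log2 value per spot and array. Limma is named in the submitters' processing notes, without settings. Against the scanner values the deposited table's direction is mutant over wild type, its column medians are −0.04, 0.01 and −0.01, whether it was centred is unknown, and its columns for replicates 1 and 3 each correlated best with the other's scanner file (0.916 and 0.983).

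With R 4.3.3 and limma 3.58.1, signals were corrected by normexp (offset 50), with 7 spots of extreme local background on replicate 3 set to the median background and left out, as in an earlier analysis of these data. Loess within arrays, removal of outlier spots (317, 364 and 438), and one probe per gene (the brightest) followed. Symbols came from RefSeq (GRCm38.p6) for 26761 probes. The mean ratio per gene was compared with 0 in a two-sided moderated test (lmFit, eBayes), adjusted by Benjamini-Hochberg over 15427 genes, at a threshold of 0.05; the code was tested on simulated data. Each array pairs 1 mutant with 1 wild type sample. Number of arrays limits the precision. The members and lists were chosen with earlier results of these data known. Named are all members, the 3 genes of smallest p in each list, the nearest gene of each member and Dido1; other genes were named after their values were seen. One gene that the rule names is not reported here. Probe sequences came from the scanner output. Figures used matplotlib 3.10.9.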

Additional observations from a re-analysis of the deposited data

How the results depend on the processing

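Over 14 alternatives, Foxc1, Foxc2, Twist2, Meox1, Wt1 and Tbx2 kept their direction wherever they were tested, with ranges of −3.20 to −0.91, −1.37 to −0.36, −1.21 to −0.31, 0.49 to 1.92, 0.97 to 2.46 and 0.016 to 0.74. Twist1 turned below 0 with all spots in the background model (−0.12), a dye term (−0.17), median centring (−0.15), the authors' deposited values (−0.027), and without replicate 1 (−0.13) or replicate 3 (−0.21), and was 0.64 without replicate 2. Prrx2 turned above 0 without replicate 2 (0.050). Median centring moved the median of all genes by −0.26, to −0.22. Genes called higher and lower numbered 32 and 14 as reported. They were 0 and 0 with all spots in the background model (1684 with p under 0.05 before adjustment) and on the deposited values of the authors (3057 likewise). The counts were 86 and 57 with offset 16, 239 and 139 on processed signals, 4 and 3 with median centring, 63 and 46 with scaling, 2449 and 2300 with a dye term, and 178 and 96 with channels unpaired (no replicate block). They were 1 and 1 without a filter, 3 and 1 with both genotypes above background and 67 and 36 with the mean over probes. With 1 replicate left out they ran from 3 to 3963 and from 2 to 3345. Genes higher made up 69.6% of the called ones, against 57.1% with median centring and 57.8% with scaling. Members called were 2 higher and 1 lower with a dye term, and 0 to 3 each way with 1 replicate left out. Members at least 2-fold on every array were 1 higher (Meox1) and 1 lower (Foxc1) on processed signals, 1 lower (Foxc1) with offset 16, and 0 to 1 each way with 1 replicate left out. The members' median was −0.32 with median centring and 0.29 with both genotypes above background, where 4 members remained, and −0.22 to 0.35 when single replicates were dropped. The partner list's median was −0.38 without a filter. The mesothelium list's was −0.82 with both genotypes above background and −0.43 to 0.25 when single replicates were dropped. The partner and mesenchyme medians stayed below 0 under all 14. The cause of each was not tested. Signal near background limits most of the probes. The unpaired fit changed no member's call, and otherwise samples on an array were paired throughout.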
